A study of Mus musculus with 6 samples.

Results

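The BCL2 family sets the threshold at which a cell permeabilises its mitochondria and dies, and 10 of its genes were followed here in mouse erythroblasts that had kept or lost P38α. The genes were chosen by name, and their probes were every non-control probe that the arrays label with that name. They were read by 14 of 55681 probes, for 10 of 34761 gene names. All samples were bone marrow erythroblasts sorted as CD71high Ter119+ from C57Bl/6 mice, 3 mice labelled P38α+/- (Mx1-Cre/P38α fl/+) and 3 labelled P38α-/- (Mx1-Cre/P38α fl/fl). Both genotypes carried Mx1-Cre and received 3 injections of 300 µg PolyIC at 6 to 8 weeks of age, 6 weeks of rest and 1 injection of 100 mg per kg phenylhydrazine (PHZ), which lyses red cells. Cells were taken on day 4 of recovery, and 10 ng of RNA from each mouse was amplified and read on 1 whole-genome Agilent array for mouse. The P38α+/- mice are the control, so they lack 1 of the alleles themselves. Mx1-Cre acts in interferon-responsive cells of many kinds, so deletion was not restricted to the erythroid lineage. The question for these genes was whether the balance of survival and death transcripts differs when erythroblasts lack P38α.

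BCL2 family proteins share short BCL2 homology (BH) motifs. The pro-survival proteins BCL2, BCL-XL (gene Bcl2l1) and MCL1 hold the effectors BAX and BAK in check at the mitochondrial outer membrane. BH3-only proteins, among them BIM (Bcl2l11), PUMA (Bbc3), NOXA (Pmaip1), BAD and BID, are induced or activated by stress and bind the pro-survival proteins or the effectors through their BH3 motif. Once BAX and BAK form pores, cytochrome c leaves the mitochondria and caspases are activated. Maturing erythroblasts depend on BCL-XL, which rises under erythropoietin and STAT5 signalling.

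The probes with coding sequence of the motifs that define the subclasses are given here, since the measured signal is the hybridisation to these bases. Each runs 5′ to 3′ in the sense of the mRNA, in mm9, the build of the array files. The Bcl2l11 probe lies on the plus strand of chromosome 2, from 127972893 to 127983988, and its 60 bases are spread over 11096 bases of genome, so it crosses at least 1 intron. Its capitals, bases 6 to 11, are the codons of the glycine and aspartate at the core of the BH3 motif. The Bcl2 probe lies on the minus strand at chr1:108608970-108609029, and its capitals, bases 23 to 28, are the adjacent glycine codons of the BH1 motif, which helps to form the groove that receives a BH3 helix. The dimmer of the Bcl2l1 probes lies on the minus strand at chr2:152655185-152655244 in the part of the coding sequence that BCL-XL has and the short form BCL-XS lacks, and has no capitals.
Bcl2l11: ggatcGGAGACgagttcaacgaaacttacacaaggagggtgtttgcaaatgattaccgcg
Bcl2: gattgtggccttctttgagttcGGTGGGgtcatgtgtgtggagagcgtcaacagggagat
Bcl2l1: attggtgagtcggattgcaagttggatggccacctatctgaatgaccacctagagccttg

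Signals below are log2 of the background-corrected intensity minus the array's own 75th percentile over 15540 probes well above background on all 6 arrays, so 0 is the level of a well expressed gene, and values of different probes cannot be set against each other. A difference is the mean of P38α-/- minus that of P38α+/- and is called a log2 fold change. Between 28.9% and 53.1% of probes were well above background on an array, with P38α-/- replicate 1 the lowest and P38α+/- replicate 1 the highest. Over all 18785 probes tested the median log2 fold change was -0.16. A gene was called where a probe had a limma adjusted p of at most 0.05 and a fold of at least 2. That rule called 27 of 14158 genes, 0.191%, but 0 genes when P38α-/- replicate 3 was left out and 310 without P38α+/- replicate 3. Leaving out any of the other 4 arrays also gave 0. Mapk14, the gene of P38α, was not lower in the arrays labelled P38α-/-: its brighter probe read 0.33, 0.58 and 0.61 in P38α+/- and 0.76, 1.19 and 1.20 in P38α-/- (log2 fold change 0.54, adjusted p = 0.186). Whether its probes lie in the deleted part was not given in the sources used here, so they do not check the labels. Genes of maturing erythroid cells such as Alas2, Slc4a1 and Gata1 were far above background on every array, the type of cell that was sorted. So was the neutrophil gene S100a9, at 6.68, 7.04 and 5.93 in P38α+/- and 5.56, 5.60 and 5.08 in P38α-/-. These signals therefore do not show how pure the sorted cells were.

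Of the 10 family genes, 8 passed the detection filter, which asks for a probe well above background in every replicate of 1 genotype or the other, and were tested. None was called, against 0.191% of all tested genes, 0.148% higher and 0.0424% lower. Bbc3 was higher on every P38α-/- array than on any P38α+/- array, and Bcl2 was lower. The other 6 tested genes overlapped between genotypes. Over all tested genes, 7.44% were higher without overlap and 19.7% lower without overlap, and with 8 genes a count of 1 in each direction is near these shares. Bcl2 was well above background on P38α+/- arrays only, so it entered the test through the genotype in which it is high. The other 7 tested genes were well above background on all 6 arrays.

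**Figure D1:**
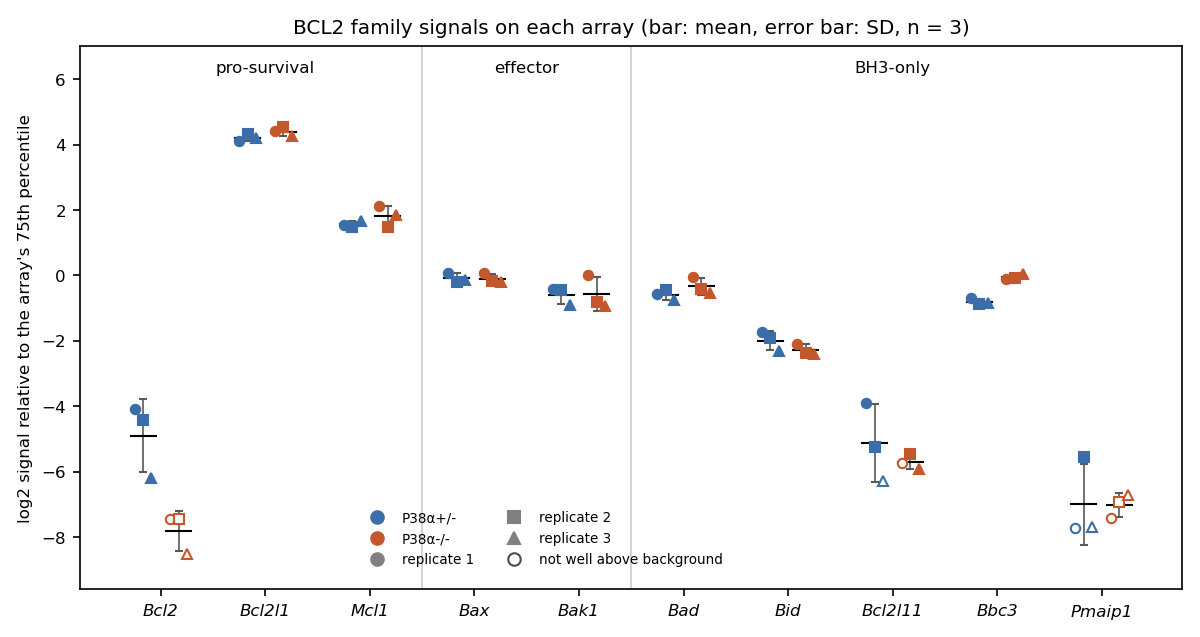
Log2 signal relative to the array's 75th percentile (vertical axis) for the probe that stands for each of the 10 family genes (horizontal axis, grouped by subclass), with P38α+/- in blue, P38α-/- in orange, a marker shape per replicate, bars for means and error bars for SD (n = 3). Hollow points were not well above background. Bbc3 and Bcl2 are the genes tested whose genotypes do not overlap, and 6 further genes tested lie within each other's spread.

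Among the pro-survival genes, Bcl2l1 was far above background in both genotypes. Its brighter probe read 4.12, 4.32 and 4.20 in P38α+/- and 4.41, 4.53 and 4.27 in P38α-/-. The ranges overlapped, the log2 fold change was 0.19 ± 0.15 (SE, n = 3 per genotype, adjusted p = 0.523), and the 95% interval of the fold ran from 0.882 to 1.47. A change of 2-fold in either direction lies outside that interval. The dimmer probe, whose sequence is given above and which reads BCL-XL, gave 0.41, 0.69 and 0.76 in P38α+/- and 0.61, 0.92 and 0.94 in P38α-/-. The difference for this probe, a log2 fold change of 0.21 (adjusted p = 0.552), was close to that of the brighter probe, and both probes were higher in P38α-/- in all 3 same-numbered pairs.

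Mcl1, a short-lived protein needed by many blood cell types, had a pair of probes on chromosome 3 that differed in sign. The brighter one, at chr3:95466855-95466914, read 1.55, 1.48 and 1.66 in P38α+/- and 2.11, 1.50 and 1.84 in P38α-/-. The highest value was that of P38α-/- replicate 1, and the genotypes overlapped (log2 fold change 0.25, 95% interval -0.22 to 0.73, adjusted p = 0.502). The dimmer one read -1.01, -0.91 and -0.66 in P38α+/- and -1.15, -1.07 and -0.79 in P38α-/-, with a log2 fold change of -0.14 (95% interval -0.57 to 0.29, adjusted p = 0.692). Neither probe separated the genotypes, so no direction can be given for Mcl1.

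Bcl2, the founding member of the family, was dim. Its intensities were 47.6, 61.0 and 20.5 on the P38α+/- arrays and 4.24, 9.04 and 3.72 on the P38α-/- arrays. On the normalised scale it read -4.09, -4.42 and -6.18 in P38α+/- and -7.46, -7.44 and -8.52 in P38α-/-. All 3 P38α+/- arrays were well above background, no P38α-/- array was, and P38α+/- replicate 3 lay between its own group and the other. Only a bound exists for P38α-/-, taking for each array the lowest signal among its probes well above background. Set against it, the P38α+/- mean made Bcl2 at least 3.00-fold lower on this scale, without allowing for the spread between arrays. The fitted log2 fold change was -2.91 ± 0.60 (SE, adjusted p = 0.102), which missed the threshold. It passed with a log2 fold change of -3.55 and an adjusted p of 0.0473 when P38α+/- replicate 3 was left out. Normexp background correction reduced the difference to -0.66 (adjusted p = 0.650), which is smaller than that bound. Across the 17 alternatives that gave a value, Bcl2 was lower in P38α-/- in each, with adjusted p from 0.000362 to 0.825.

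Other genes behaved like Bcl2 in detection. Of all tested genes, 285 were well above background on all 3 P38α+/- arrays and no P38α-/- array, and 8 the other way round. The median log2 fold change of the 285 was -1.80, and 14 of them had a lower value than Bcl2. Markers of other cells were read on the same arrays, and none was called. Of 8 B cell markers, 4 were tested and 2 were lower without overlap (Ebf1 and Ms4a1), beside 19.7% of all tested genes. Both were at background on all P38α-/- arrays, with Pax5 and Igll1 too. Ebf1 and Ms4a1 thus passed the detection filter only through P38α+/-, so nothing is read from that count. The mean log2 signal of the 8 was -3.49, -3.52 and -6.28 in P38α+/- and -6.12, -7.04 and -7.50 in P38α-/-. As for Bcl2, P38α+/- replicate 3 was the lowest of its genotype. That order was not particular to B cells. The same array was also lowest for the early erythroid, neutrophil, monocyte or macrophage, T or NK cell and megakaryocyte or platelet lists. It was the highest of its genotype for the late erythroid list. The summed linear signal of the B cell markers ran from 0.158 to 1.68 in P38α+/- and from 0.0692 to 0.226 in P38α-/-. Of 9 neutrophil markers, all of them tested, 8 were lower without overlap, beside 19.7% of all tested genes. None was at background, and their sum ran from 105 to 274 in P38α+/- and from 55.6 to 80.0 in P38α-/-. Of 6 early erythroid genes, 4 were tested, and of these Kit was lower without overlap, beside 19.7% of all tested genes. Gata2 was lower without overlap too. Gata2, well above background on 1 P38α+/- array only, and Cdk6, at background on every array, were not tested. The log2 fold change was -1.62 for Kit, the stem cell factor receptor, -1.87 for Cd34, -1.08 for Myb and 0.05 for Myc. Cd34, Myb and Myc overlapped between genotypes. With the replicate number as a block in limma, Kit, Cd34 and Ebf1 were called (adjusted p = 0.0480 each). Cd34 and Ebf1 had passed the detection filter through P38α+/- alone. The median difference was -1.23 over the early erythroid genes, -0.98 over 9 monocyte or macrophage markers and -1.06 over 9 T or NK cell markers. Each of these lists had 2 genes lower without overlap, beside 19.7% of all tested genes. Gzma, in the T or NK cell count, passed the detection filter only through P38α+/-. Nothing is read from these counts. The median difference was 0.04 over 8 late erythroid genes. Of the early erythroid, monocyte or macrophage and T or NK cell lists, 4, 7 and 5 genes were tested, and the medians include the others. The part of any of these cells in the Bcl2 signal was not tested, and fewer cells of a type cannot be told apart from less RNA per cell in sorted bulk samples.

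**Figure D2:**
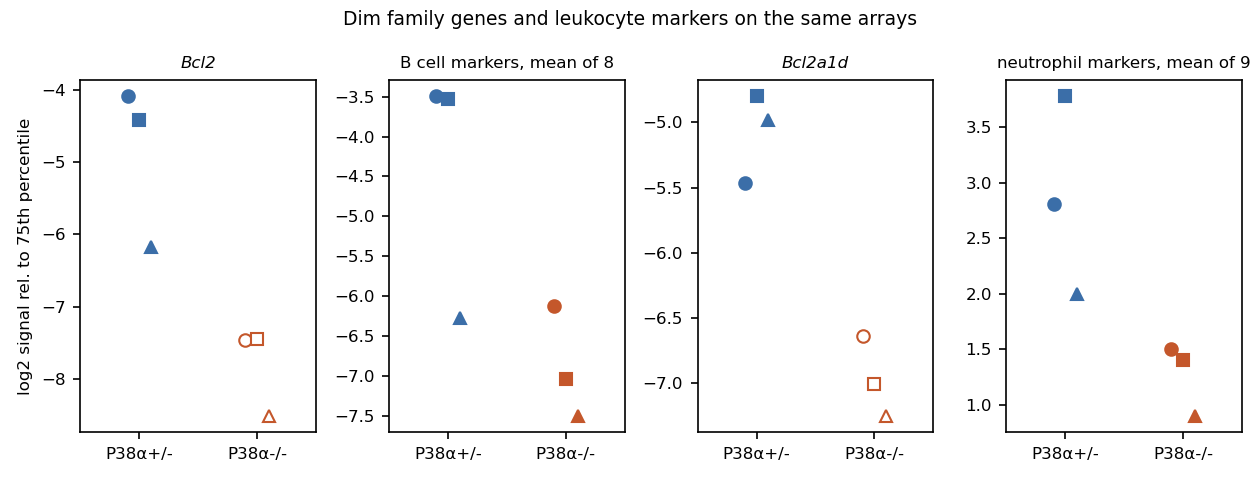
Log2 signal relative to the array's 75th percentile (vertical axis, scaled per panel) on each P38α+/- (blue) and P38α-/- (orange) array for Bcl2, the mean of 8 B cell markers, Bcl2a1d and the mean of 9 neutrophil markers, with circles, squares and triangles for replicates 1, 2 and 3 and hollow points where the gene was not well above background. All but the B cell panel show no overlap between genotypes, and P38α+/- replicate 3 is the lowest of its genotype in the Bcl2, B cell and neutrophil panels.

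The effectors did not separate by genotype. Bax read 0.08, -0.20 and -0.15 in P38α+/- and 0.06, -0.17 and -0.19 in P38α-/-, with a log2 fold change of -0.01 (95% interval -0.40 to 0.38, adjusted p = 0.977). Bak1 read -0.41, -0.46 and -0.90 in P38α+/- and 0.03, -0.82 and -0.92 in P38α-/-, with a log2 fold change of 0.02 (95% interval -0.70 to 0.74, adjusted p = 0.977). For Bak1 the spread within a genotype was the wider, mainly through P38α-/- replicate 1, the array with the fewest detected probes. Without that array its log2 fold change was -0.24. A 2-fold difference lies outside both intervals, and the sign of either gene turned with the scaling or with the array left out.

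Bbc3, the gene of PUMA, a BH3-only protein induced by P53 and by other stress pathways, separated most cleanly. Its probe at chr7:16903403-16903462 read -0.70, -0.87 and -0.86 in P38α+/- and -0.11, -0.08 and 0.04 in P38α-/-. Every P38α-/- array was above every P38α+/- array, and the distance between the groups was several times their SDs of 0.09 and 0.08. The log2 fold change was 0.76 ± 0.14 (SE, n = 3 per genotype), a fold of 1.69 with a 95% interval of 1.33 to 2.15. With an adjusted p of 0.0876 from limma over all probes and a fold under 2 it was not called. The exact two-sided permutation test gave 0.1, the smallest value that 3 arrays against 3 allow. The same-numbered pairs differed by 0.59, 0.79 and 0.90. Bbc3 was the only family gene higher at an unadjusted p of at most 0.05, a level that 4.86% of all tested genes reached in that direction. Its difference stayed between 0.71 and 1.24 across 18 alternatives, and it was called under 1 of them, the percentile of all probes, at 1.24 (adjusted p = 0.0362). That scaling moved the median of all tested probes to 0.32. With limma's array weights the adjusted p of Bbc3 was 0.0375, but its log2 fold change of 0.82 stayed under the 2-fold threshold.

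Bad, whose protein is held inactive by phosphorylation, and Bid, whose protein is activated by cleavage, were expressed and did not separate the genotypes. The brighter Bad probe read -0.57, -0.45 and -0.76 in P38α+/- and -0.05, -0.43 and -0.53 in P38α-/- (log2 fold change 0.26, 95% interval -0.20 to 0.72, adjusted p = 0.473). The dimmer one, whose 60 bases span 486 bases of genome, gave a log2 fold change of 0.16 (adjusted p = 0.776). Bid read -1.74, -1.92 and -2.31 in P38α+/- and -2.09, -2.36 and -2.41 in P38α-/- (log2 fold change -0.29, 95% interval -0.78 to 0.20, adjusted p = 0.453). Bad was higher and Bid lower in all 3 same-numbered pairs, with overlapping ranges. Under the percentile of all probes the sign for Bid turned, to 0.19.

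Bcl2l11, the gene of BIM, was at the edge of detection and was not tested. The probe over the BH3 codons printed above had intensities of 54.6, 34.8 and 19.2 in P38α+/- and 14.1, 35.5 and 22.7 in P38α-/-. It was well above background on P38α+/- replicates 1 and 2 and on P38α-/- replicates 2 and 3. On the normalised scale the values were -3.89, -5.23 and -6.28 in P38α+/- and -5.72, -5.47 and -5.91 in P38α-/-. The P38α+/- arrays spanned the whole range and the P38α-/- arrays lay inside it. The difference of -0.57 turned on single P38α+/- arrays. It was 0.06 without replicate 1 and -1.14 without replicate 3. In the latter fit the probe passed the detection filter (adjusted p = 0.188), but only through the remaining P38α+/- arrays, where it is high. The probe also passed without P38α-/- replicate 1, through the remaining P38α-/- arrays, at -0.52 (adjusted p = 0.747). With all arrays the difference was smaller than the SD of 1.19 within P38α+/-, and the exact two-sided permutation p was 0.6. The other Bcl2l11 probe, at chr2:127954736-127955417, was lower on every P38α-/- array than on any P38α+/- array but was not well above background on any of the 6, so it gives no fold. A difference in Bim transcript could not be detected at this signal.

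Pmaip1, the gene of NOXA, was well above background on 1 array, P38α+/- replicate 2, at -5.57. The other 5 arrays lay between -7.74 and -6.73 and have only a bound. No difference can be given for it.

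**Figure D3:**
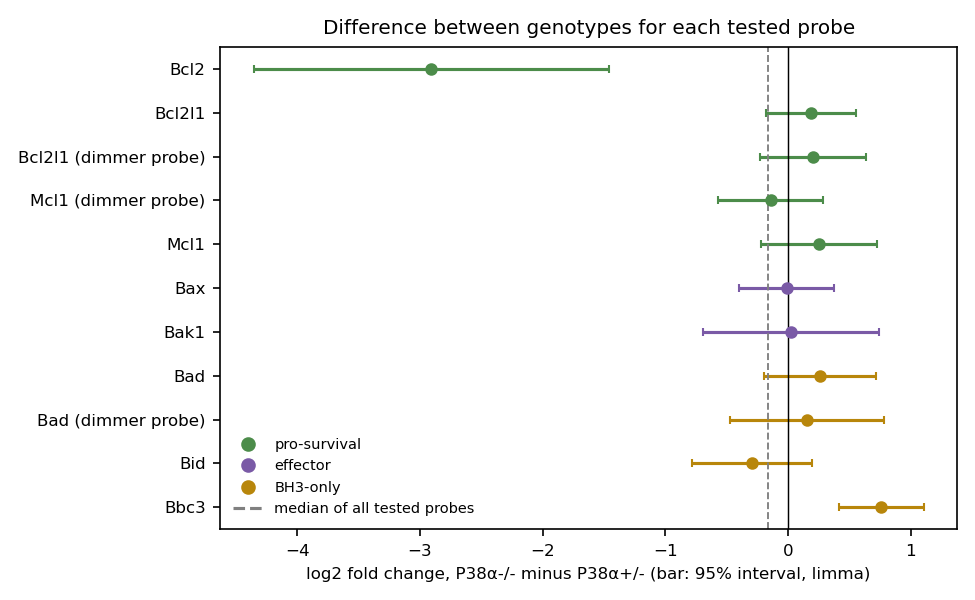
Log2 fold change of P38α-/- over P38α+/- (horizontal axis) with its 95% interval from limma for each of the 11 tested probes, coloured by subclass, with a dashed line at -0.16, the median of all tested probes. The interval of Bcl2 lies wholly below 0 and that of Bbc3 wholly above it before adjustment, and the other 9 intervals cross 0. Bcl2 was tested only through P38α+/-, where it is high, and no P38α-/- array had it well above background, so nothing is read from its interval.

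Averaged by subclass, the tested pro-survival genes read 0.52, 0.46 and -0.11 in P38α+/- and -0.31, -0.47 and -0.80 in P38α-/-, a difference of -0.82. That difference was carried by Bcl2: the mean of Bcl2l1 and Mcl1 was 2.89 ± 0.05 (SD, n = 3) in P38α+/- and 3.11 ± 0.13 in P38α-/-, a difference of 0.22. The effectors differed by 0.00 (-0.34 ± 0.18 against -0.34 ± 0.33). The 3 tested BH3-only genes read -1.01, -1.08 and -1.31 in P38α+/- and -0.75, -0.95 and -0.97 in P38α-/-, a difference of 0.24, with Bbc3 the one of them that differed most. Of the 8 tested genes, 6 lay above and 2 below the median of all tested probes. That split depended on the scaling. With quantile normalization, where that median was 0.06, Bax and Bak1 lay below it too (-0.056 and -0.003 relative to it). In the authors' table Bak1 did (-0.013). On the main scale the median log2 fold change of the 8 was 0.10, against -0.14 for all tested genes. For the 7 well above background on every array it was 0.19, against -0.08 for all such genes. These means are descriptions of arrays, with no test, and the pro-survival mean turned sign when Bcl2 did not enter it.

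**Figure D4:**
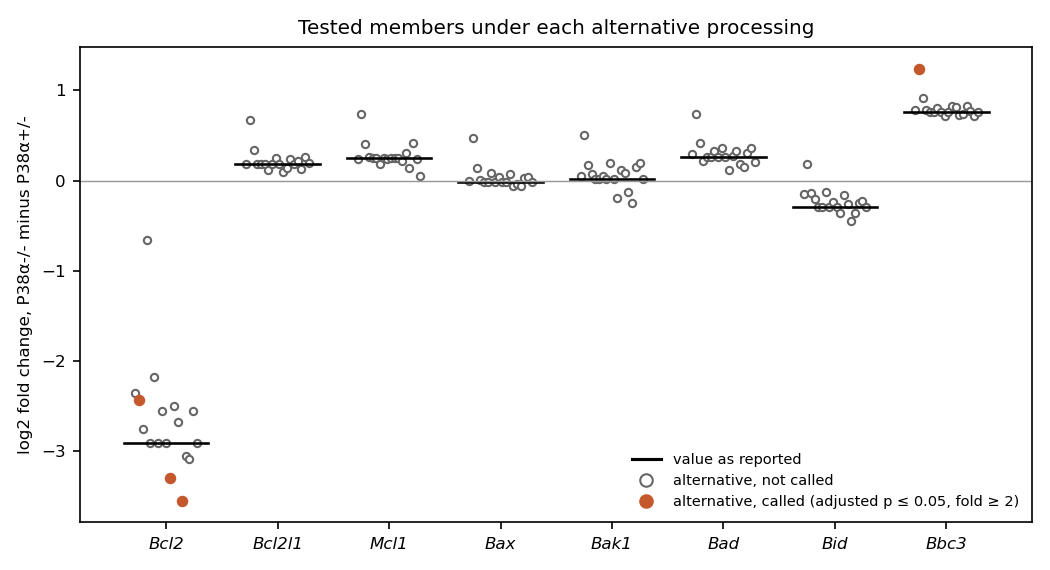
Log2 fold change of P38α-/- over P38α+/- (vertical axis) for each of the 8 tested family genes, as reported (black line) and under each alternative processing (points, orange where called at an adjusted p of at most 0.05 and a fold of at least 2). Bcl2 stays below 0 and Bbc3 above 0 throughout, Bcl2l1, Mcl1 and Bad stay above 0 without a call, and Bax, Bak1 and Bid cross 0. Bcl2 was well above background on P38α+/- arrays only, and entered the test through them.

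Of 17 further family genes, 15 had a probe and 8 were tested. None was called, 4 were lower and 1 was higher without overlap, beside 19.7% and 7.44% of all tested genes. Of the 4, Bcl2a1d and Bmf passed the detection filter only through P38α+/-, the genotype in which they are high, so nothing is read from that count. Bcl2a1d, a gene of the pro-survival A1 group that leukocytes express, read -5.47, -4.80 and -4.98 in P38α+/- and -6.64, -7.01 and -7.26 in P38α-/-. Every P38α+/- array and no P38α-/- array had it well above background, which makes it at least 2.64-fold lower in P38α-/- on this scale (fitted log2 fold change -1.89, adjusted p = 0.0661). The fitted value depended on the processing and was -0.83 with quantile normalization, -0.62 in the authors' table and -0.45 with normexp, all smaller than that bound and with adjusted p of 0.601 to 0.687. It shares sequence with its tandem copies, of which Bcl2a1a and Bcl2a1b had no probe by name here, so the signal may not be of this copy alone. Neutrophil markers were lower on the same arrays, and their part in it was not tested.

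Bmf, a BH3-only protein released from the cytoskeleton, read -5.30, -5.24 and -5.78 in P38α+/- and -6.77, -6.41 and -7.90 in P38α-/-. Only replicate 2 of the P38α-/- arrays was well above background (log2 fold change -1.59, adjusted p = 0.127). Its log2 fold change was -0.57 with quantile normalization, -0.44 in the authors' table and -0.30 with normexp. Bcl2l15 read -2.04, -1.81 and -1.82 in P38α+/- and -2.46, -2.69 and -2.68 in P38α-/-. Each of the 6 arrays detected it, and the groups lay apart by more than their SDs of 0.13 (log2 fold change -0.72, adjusted p = 0.104, and -0.24 under the percentile of all probes). Bnip3, which recruits the autophagy machinery to mitochondria under hypoxia, differed by -0.79 (adjusted p = 0.239) without overlap, and by -0.31 to -0.43 under the percentile of all probes, quantile normalization, normexp and the authors' table. A dimmer tested probe of Bnip3 differed by -1.13 (adjusted p = 0.235), with overlap between genotypes. Bcl2l13, another mitophagy receptor, was higher without overlap by 0.29 (adjusted p = 0.354).

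Bnip3l, the receptor through which reticulocytes clear their mitochondria, was far above background in both genotypes. Its brightest probe read 4.16, 4.29 and 3.97 in P38α+/- and 3.94, 4.15 and 3.82 in P38α-/-, and its 4 probes gave log2 fold changes between -0.17 and -0.07. Becn1 (-0.04) and Bcl2l12 (0.37) overlapped between genotypes. Bcl2a1c, Bcl2l10, Hrk and Bcl2l14 were at background on every array. The remaining 3, Bcl2l2, Bok and Bik, were well above background on 2 P38α+/- arrays each, and Bik on 1 P38α-/- array as well, so they were not tested.

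**Figure D5:**
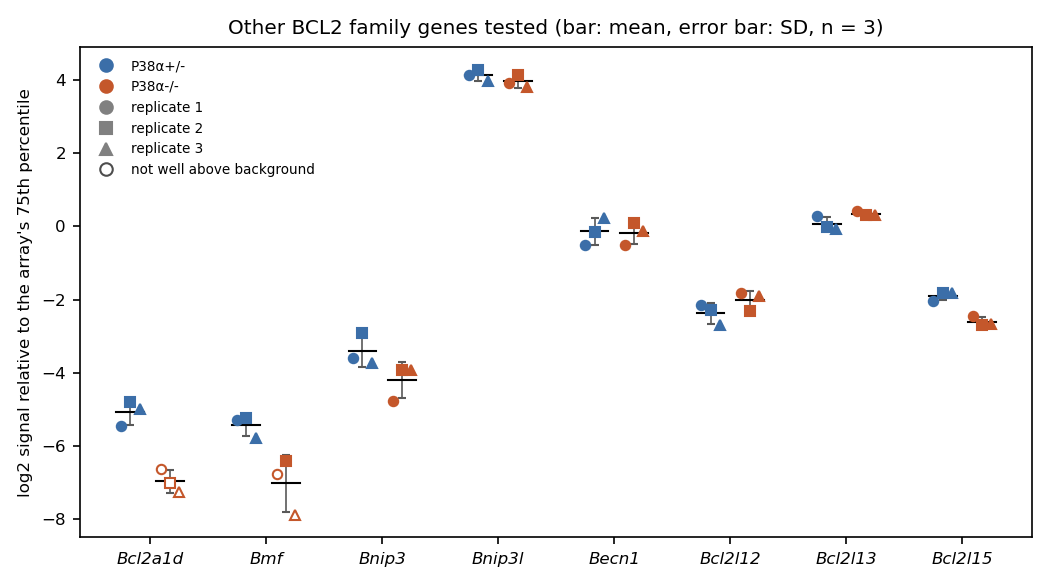
Log2 signal relative to the array's 75th percentile (vertical axis) for the 8 other BCL2 family genes tested, with P38α+/- in blue, P38α-/- in orange, a marker shape per replicate, bars for means and error bars for SD (n = 3), and hollow points where not well above background. Bcl2a1d, Bmf, Bnip3 and Bcl2l15 lie lower and Bcl2l13 higher in P38α-/- without overlap, and none passed the threshold.

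Of 16 regulators of these genes or proteins, 15 were tested, and 15 of 15 genes of the mitochondrial pathway at and below the outer membrane. None of the 30 had an adjusted p of at most 0.05, and the smallest was 0.196. Without overlap, 4 were lower (Ywhaz, Btrc, Ezh2 and Xiap) and 2 higher (Casp9 and Htra2), 20.0% together against 27.2% of all tested genes, so this share was not above the background. Their median log2 fold change was 0.00 and they ran from -0.92 for Ywhaz, a 14-3-3 protein that holds phosphorylated BAD in the cytosol, to 0.48 for Trp53. The dimmer Ywhaz probes differed in sign, at -0.66 and 0.09. Among the 30 genes, Ezh2, the methyltransferase of the Polycomb complex, had a mean of 0.63 ± 0.21 (SD) in P38α+/- and 0.20 ± 0.18 in P38α-/- (log2 fold change -0.43, adjusted p = 0.247). Gata1, which drives Bcl2l1 in erythroid cells, differed by 0.05, and Cycs, the gene of cytochrome c, by 0.07. Of the outer membrane channel genes, Vdac2 and Vdac3 differed by 0.04 and 0.07, and Vdac1 by 0.27 (adjusted p = 0.388), higher in all 3 same-numbered pairs.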

How the data were processed

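RNA of sorted erythroblasts from 3 P38α+/- and 3 P38α-/- mice was read on 1 array each. The authors deposited Feature Extraction 10.7.3.1 intensity values of every spot, background-subtracted, not normalized between arrays, and a quantile-normalized linear intensity table. There, P38α-/- replicate 2 correlates with its scanner signal at a Spearman rho of only 0.898, the others at 1.00. Every column was assigned by its label. Control and outlier spots were dropped, spots of a probe averaged, and log2 signals centred on the array's 75th percentile taken over 15540 probes that every array detected well above background. Probes well above background (at least 50% of a probe's spots) on all arrays of a genotype were tested with limma 3.58.1 (R 4.3.3, two-sided, Benjamini-Hochberg over 18785 probes, threshold adjusted p of 0.05 and 2-fold). Gene symbols of probes that are no family member came from RefSeq tables where the accession or symbol matched. The brightest tested probe stood for a gene. A gene of the B cell marker list is not reported here.

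The members and lists were chosen with earlier results of these data known. All 10 members are named, with all other tested family genes, and regulators or mitochondrial genes whose genotypes do not overlap; Cycs, Vdac1, Vdac2, Vdac3, Gata1 and Trp53 were named after their values were seen. On simulated data with 18780 probes, limma recovered 9 of 67 probes changed by 1 on the log2 scale, 43 of 67 changed by 2 and 51 of 66 changed by 3, and called 0 when none changed. The simulated noise was independent for each probe and array. It lacks the deviations that same-numbered arrays share, so it does not give the rate of false calls in these data. Detection differed between arrays and limits dim genes, and 6 arrays limit the precision. Same-numbered arrays deviated together from their genotype means (r = 0.393, 0.242 and 0.389, at most 0.061 between other arrays), and the study's design text speaks of pairs. The methods' test is unpaired, so a blocked fit by replicate number is an alternative. Other alternatives were quantile normalization, the percentile of all probes, spike-in centring, normexp with an offset of 50, no filter, a stricter filter, the authors' table, the slide as a block, array weights, the methods' t-test, each array left out, averaging a gene's tested probes, and no fold threshold. P38α-/- replicate 3 was alone on its slide and scan.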

Additional observations from a re-analysis of the deposited data

How the results depend on the processing

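The count of 27 called genes (77.8% higher) depended on nearly every choice. It was 15 (93.3% higher) with quantile normalization, 730 (55.5%) with the percentile of all probes, 8 (25.0%) with spike-in centring, 17 (100%) with normexp, 64 (73.4%) with the stricter filter, 11 (100%) with the authors' table, 62 (24.2%) with the replicate number as a block, 502 (29.5%) with array weights and 2 (100%) by the methods' t-test. It was 0 with no filter and with a slide block, which amounts to leaving out P38α-/- replicate 3, and at an unadjusted p of 0.05 those fits had 3272 of 55681 and 2550 of 18785 probes, against 3932 of 18785. With 1 array left out it ran from 0 to 310, the latter without P38α+/- replicate 3. The cause was not tested.

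Of the 10 family genes, 0 were called, against 2 under the percentile of all probes (Bcl2 and Bbc3) and 1 with array weights (Bcl2). With 1 array left out the count ran from 0 to 1, Bcl2 being called without P38α+/- replicate 3. The replicate block left the count at 0, with adjusted p of 0.0567 for Bcl2 and 0.0772 for Bbc3, and changed no call of a family, regulator or mitochondrial gene. Among the markers it called Ebf1, Kit and Cd34, of which Ebf1 and Cd34 had passed the detection filter only through P38α+/-. Of the 48 other listed genes 0 were called, with 1 with array weights and 1 under the percentile of all probes, Bcl2a1d in both, and 0 to 1 with 1 array left out (Egr1, an immediate early gene, without P38α+/- replicate 3). That fit called 310 of all genes. Egr1 was well above background on 2 P38α+/- arrays and no P38α-/- array, and was not tested with all arrays. It passed the detection filter only through P38α+/-, the genotype in which it is high, so nothing is read from its call. The pro-survival mean difference of -0.82 became -0.34 under the percentile of all probes, -0.068 with normexp and 0.22 with the stricter filter, which drops Bcl2. The effector difference of 0.00 became 0.49 and the BH3-only difference of 0.24 became 0.72 under the percentile of all probes, the latter 0.40 with spike-in centring. Each of these moves by the percentile includes its shift of all probes. Bcl2 and Pmaip1 rest on signals near background, where depth of signal sets only a bound.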
